A study of Mus musculus with 9 samples.

Results

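The CDK inhibitor genes are 8 mouse genes whose products restrain cyclin-dependent kinases, the enzymes that move a cell through division. They are Cdkn1a, Cdkn1b, Cdkn1c, Cdkn2a, Cdkn2b, Cdkn2c, Cdkn2d and Cdkn3. All probe sets with these gene symbols in the array's annotation were taken, whatever their values. The list itself was chosen with earlier results of these data known. These genes are 8 of the 8251 that the array names singly, and 10 of its 12422 probe sets, the groups of short oligonucleotides that each give 1 intensity. Expression was measured on 9 arrays of 2 mouse prostate epithelial lines in RPMI-1640 medium. The groups were the Rb-null line (Rb-/- in the labels) after 48 hours without fetal bovine serum (2 arrays), the Rb-null line in 5% serum (2 arrays), the wild-type line after 48 hours without serum (2 arrays) and the wild-type line in 5% serum (3 arrays). The labels give 1 line per genotype, so genotype and line cannot be told apart. They do not give how the allele was made or whether arrays of a group were separate cultures, so p-values measure the spread between arrays, which may be technical.

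The retinoblastoma protein, encoded by Rb1, binds E2F transcription factors and holds back entry into DNA synthesis until cyclin-dependent kinases phosphorylate it. INK4 proteins, from Cdkn2a, Cdkn2b, Cdkn2c and Cdkn2d, bind the kinases CDK4 and CDK6 and so keep this protein active. CIP/KIP proteins, from Cdkn1a, Cdkn1b and Cdkn1c, bind complexes of cyclins with a wider range of kinases, CDK2 among them. Cdkn3 belongs to neither family: it encodes a phosphatase that removes the activating phosphate from CDK2, and its transcript is known from dividing cells.

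Median deposited intensity ran from 444.8 to 473.8 over the arrays. Values were quantile normalised, and 197, percentile 25 of all values, was taken as the floor below which a probe set was not counted as measured. The tested Rb1 probe set read 109.5 to 171.2 on the Rb-null arrays, all under the floor, against 367.7 to 714.5 on the wild-type arrays. The array wild-type serum 1 stood apart, with rank correlations of 0.983 and 0.986 with the other wild-type serum arrays, against 0.997 between those. Results are therefore also given without it. Of 10 epithelial and prostate markers on the array, 9 were above the floor on all arrays, Krt8 and Krt18 among them, and Pbsn, the secreted probasin of mature luminal cells, was under it on all 9. Of the markers of other cell types, Vim, Acta2, Myh11 and Ptprc were under the floor on all arrays, while Des, Pecam1 and Cd68 were above it on all 9, Cdh5 on 4 and Cd3g on 6. The summed level of the 4 mesenchymal and smooth muscle markers was 882 to 912 on the Rb-null arrays and 926 to 1134 on the wild-type arrays. The 2 endothelial markers summed to 567 to 661 in Rb-null and 715 to 928 in wild-type arrays, and the 3 leukocyte markers to 841 to 877 in Rb-null and 908 to 980.2 in wild-type arrays. The 10 epithelial and prostate markers summed to 19540 to 24980 on the Rb-null arrays and 20860 to 23370 on the wild-type arrays. These 2 ranges overlapped. The sums for the other cell types include values under the floor, and the mesenchymal sum rests mainly on Des. Those sums were lower in the Rb-null line, as were several members below. Their part in those results was not tested. In bulk RNA, fewer cells that express a gene and less RNA per cell cannot be told apart.

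Of the 10 member probe sets, 8 from 7 genes were above the floor on all 9 arrays and were tested. The only Cdkn1c probe set and the other Cdkn1b probe set were under the floor on every array, so they have no fold change.

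The design asks how the inhibitors respond when serum is withdrawn in each line, and how they differ between the lines in each medium. After withdrawal 3 genes moved in both lines: Cdkn1a and Cdkn2b rose and Cdkn3 fell, while Cdkn1b, Cdkn2a, Cdkn2c and Cdkn2d passed in neither. In the Rb-null line 3 of 8 probe sets rose and 1 fell, against 7.5% rising and 6.42% falling among the 9686 probe sets tested. In the wild-type line it was again 3 of 8 higher and 1 lower, against 6.61% and 9.25%. These 2 comparisons share no arrays. They do share 1 estimate of the spread over all 9 arrays, so their p-values are not independent. Between the lines in serum, both Cdkn1a probe sets and Cdkn3 were lower and Cdkn2b was higher in Rb-null cells, 3 lower and 1 higher of 8. Among all probe sets 23.6% were called in that comparison, 10.4% lower and 13.2% higher. Without serum only the 2 Cdkn1a probe sets passed, both lower, 2 of 8 against 30.7% called among all, 13.9% lower and 16.8% higher. Averaged over the media, 4 of 8 were lower (both Cdkn1a probe sets, Cdkn2d and Cdkn3) and 0 higher, against 45.2% called among all, 23.4% lower and 21.8% higher. The absence of a higher call depended on the processing. Cdkn2b read 0.16 there (limma adjusted p = 0.0758). It was called higher as deposited (0.21, adjusted p = 0.0273), with median scaling (0.18, adjusted p = 0.0482) and with the floor at percentile 40 (adjusted p = 0.0436). Without wild-type serum 1 the averaged count was 7 of 8, 6 lower and 1 higher. Among all probe sets 6074 were then called, against 4377 with all 9 arrays. Cdkn1b (-0.27, limma adjusted p = 0.00641), Cdkn2a (-0.28, adjusted p = 0.0128) and Cdkn2b (0.17, adjusted p = 0.0293) were the additional calls. Without that array 6 of 8 passed in serum and 4 of 8 without serum. Among all probe sets the calls rose from 2287 to 4376 in serum and from 2971 to 4981 without serum. The additional member calls therefore came with many more calls among all probe sets and do not set the members apart. The genotype comparisons share their arrays with the withdrawal comparisons. Calls are adjusted p under 0.05 by limma with Benjamini-Hochberg adjustment over all 9686 probe sets, and differences are on the log2 scale of normalised intensity with their standard error (SE).

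**Figure D1:**
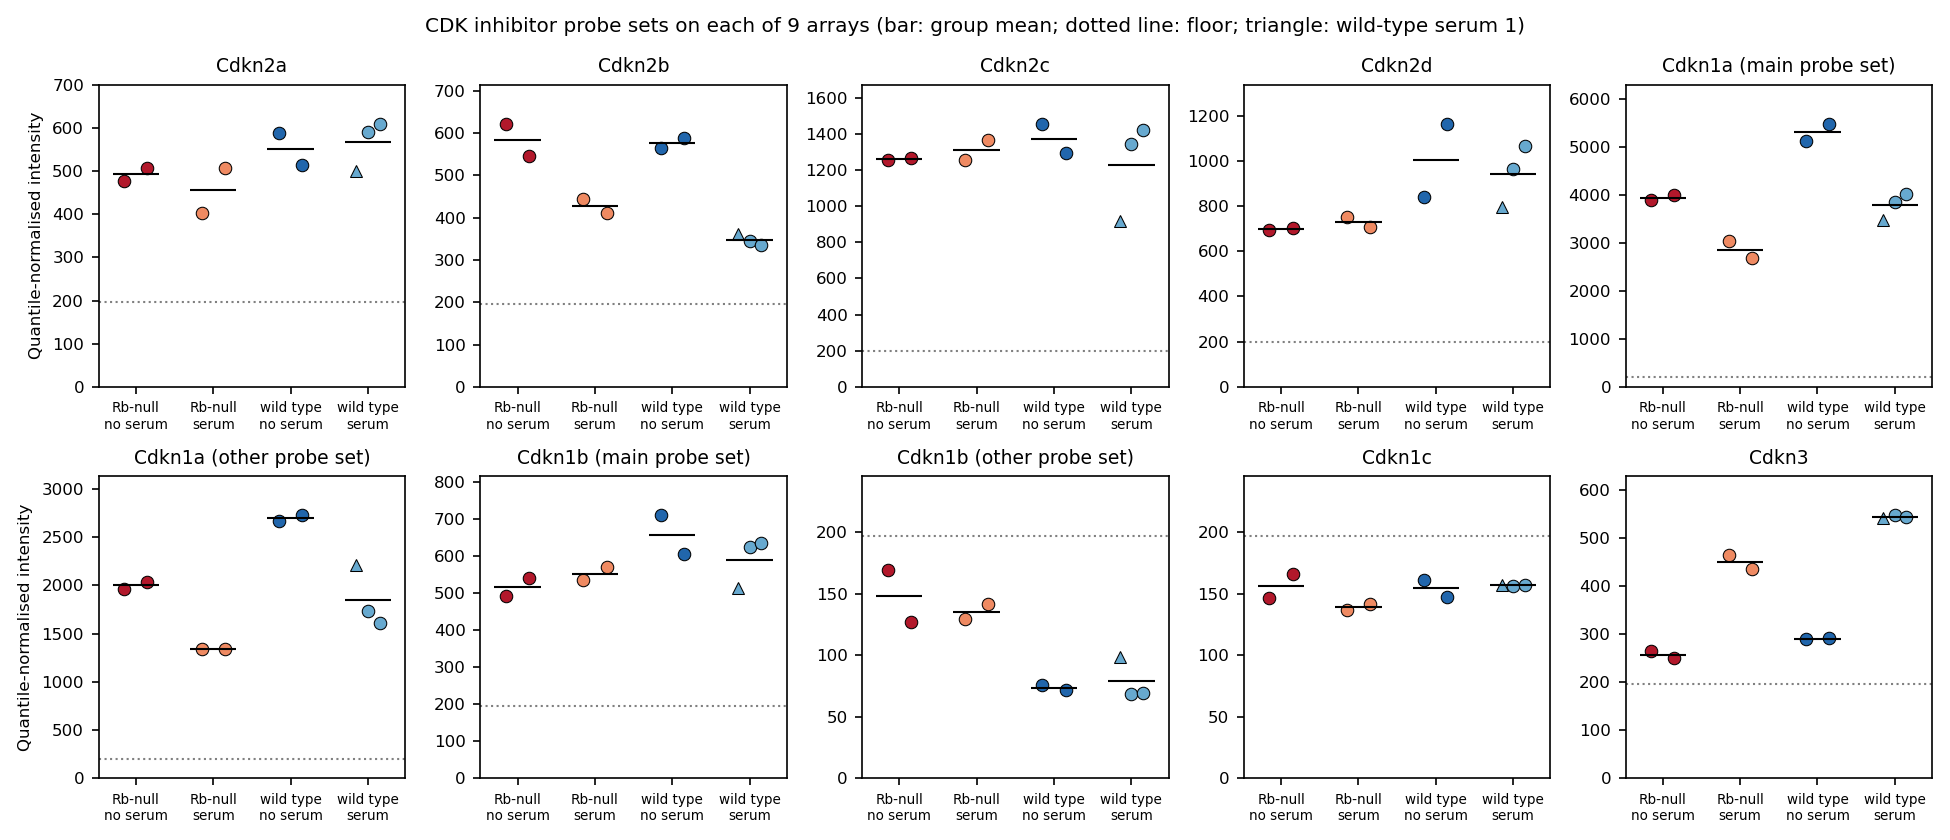
Quantile-normalised intensity (vertical axis, linear) of the 10 CDK inhibitor probe sets on each of 9 arrays, with the 4 groups along the horizontal axis, bars at group means, a dotted line at the floor of 197 and a triangle for wild-type serum 1. Cdkn1a and Cdkn2b are higher without serum and Cdkn3 is lower in both lines, and the Cdkn1c and other Cdkn1b probe sets lie under the floor.

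The background differs by comparison in its balance of directions, and that balance moves with the scaling of the arrays. Of the called probe sets, 55.9% were higher in Rb-null cells in serum, against 73.4% before any scaling and 68% with median scaling. Without serum these shares were 54.8%, 77.6% and 68.1%. For withdrawal in wild-type cells 41.7% were higher, against 25.7% as deposited. Groups this small often fail to overlap by array: the arrays of the compared groups did not overlap for 57.2% and 45.2% of all probe sets in the withdrawal comparisons (Rb-null and wild-type) and for 75.6% and 50.4% in the genotype comparisons without and with serum (23.5% with all Rb-null against all wild-type arrays), so a lack of overlap in one gene is common.

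Cdkn1a encodes p21, an inhibitor of cyclin-CDK2 complexes that p53 induces and that also holds the clamp protein PCNA. Its main probe set, the one with the higher mean, read 3894 and 3996 in Rb-null serum-free arrays and 3047 and 2680 in Rb-null serum arrays. It read 5135 and 5486 in wild-type serum-free arrays and 3490, 3847 and 4027 in wild-type serum arrays. The wild-type serum-free arrays were thus highest and the Rb-null serum arrays lowest, each clear of the rest. The groups in between, Rb-null without serum and wild type with it, overlapped, with group means 0.06 apart on the log2 scale.

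After serum withdrawal Cdkn1a rose in the Rb-null line by 0.47 (SE 0.09, 1.38-fold, limma adjusted p = 0.00754) and in the wild-type line by 0.49 (SE 0.08, 1.404-fold, adjusted p = 0.00311). Neither pair of groups overlapped. The difference between these responses was -0.02 (95% confidence interval -0.29 to 0.24, limma adjusted p = 0.946). The Rb-null line was lower than the wild-type line, with a difference of -0.43 without serum (SE 0.09, limma adjusted p = 0.00737) and of -0.40 in serum (SE 0.08, adjusted p = 0.00658), with no overlap in either medium. Averaged over the media the difference was -0.42 (SE 0.06, limma adjusted p = 0.000596) and kept its call under every one of the 16 alternative settings, between -0.46 and -0.25. The withdrawal call in Rb-null cells was lost without Rb-null serum 2 (adjusted p = 0.0856) or Rb-null serum-free 2 (0.0528), and that in wild-type cells without wild-type serum-free 2 (0.0525). Among the genotype calls, the one without serum was lost on leaving out Rb-null serum-free 1 (adjusted p = 0.0513) or wild-type serum-free 2 (0.063). As deposited, the difference without serum was -0.27 and still passed (adjusted p = 0.0384). The call in serum was lost without Rb-null serum 2 (0.09), in the values as deposited (-0.22, adjusted p = 0.0663) and with median scaling (-0.25, adjusted p = 0.0547).

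The other Cdkn1a probe set read 1968 and 2037 in Rb-null serum-free and 1343 and 1339 in Rb-null serum arrays. The wild-type arrays read 2671 and 2726 without serum and 2208, 1736 and 1606 in serum. It gave the same order of groups, with wild-type serum 1 at 2208 above its 2 fellow arrays and above both Rb-null serum-free arrays. Withdrawal raised it by 0.58 in Rb-null cells (SE 0.13, limma adjusted p = 0.0169) and by 0.56 in wild-type cells (SE 0.12, adjusted p = 0.0122), or by 0.69 in wild-type cells without wild-type serum 1. It was lower in the Rb-null line, with a difference of -0.43 without serum (limma adjusted p = 0.0346) and of -0.45 in serum (adjusted p = 0.0238). These calls were less stable than those of the main probe set: of the 16 alternatives, the withdrawal calls held in 11 in each line, and the genotype calls in 7 without serum and in 11 with serum. Without serum the genotype difference shrank to -0.19 in the values as deposited (limma adjusted p = 0.388) and to -0.23 with median scaling (adjusted p = 0.297), and in serum to -0.30 and -0.33 (adjusted p = 0.175 and 0.149). Averaged over the media it was -0.44 (limma adjusted p = 0.00359), and its call was lost as deposited (-0.25, adjusted p = 0.096) and with median scaling (-0.28, adjusted p = 0.0671). The withdrawal call in wild-type cells was also lost under both (adjusted p = 0.076 and 0.0591).

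Promoter windows are shown for the 3 genes that passed on withdrawal in both lines, Cdkn1a and Cdkn2b (higher) and Cdkn3 (lower). They are RefSeq windows of GRCm38.p6 from 250 bases before to 50 bases after a transcript start, read 5′ to 3′ on the gene's strand. The table held a window for 7 of the 8 members. Capitals mark exact matches, on either strand, to the CCAAT box (CCAAT), the GC box (GGGCGG), the cell cycle homology region or CHR (TTTGAA), the TATA box (TATAAA), 3 forms of the E2F site (TTTGGCGC, TTTCCCGC and TTTCGCGC) and the p53 half-site. Among 32851 windows of this length, 37.4% hold a CCAAT box, 35.7% a GC box, 17.9% a CHR, 13.6% a TATA box, 1.84% one of the E2F forms and 8.36% a p53 half-site. Cdkn1a has a window at an upstream start (chr17:29090729-29091028, plus strand) and at a downstream start (chr17:29093519-29093818, plus strand).
Cdkn1a, upstream start: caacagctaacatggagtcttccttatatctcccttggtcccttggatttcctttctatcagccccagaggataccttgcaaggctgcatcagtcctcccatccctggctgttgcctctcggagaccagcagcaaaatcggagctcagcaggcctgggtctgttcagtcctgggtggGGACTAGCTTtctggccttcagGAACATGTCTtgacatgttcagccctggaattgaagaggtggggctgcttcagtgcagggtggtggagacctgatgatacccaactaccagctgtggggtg
Cdkn1a, downstream start: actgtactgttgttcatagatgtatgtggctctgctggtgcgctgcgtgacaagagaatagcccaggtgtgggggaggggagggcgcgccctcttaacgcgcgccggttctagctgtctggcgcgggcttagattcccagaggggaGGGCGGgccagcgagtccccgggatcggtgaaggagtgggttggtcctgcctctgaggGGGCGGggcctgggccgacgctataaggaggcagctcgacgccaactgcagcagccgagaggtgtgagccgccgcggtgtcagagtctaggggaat
The upstream window holds 2 p53 half-sites, which begin 73 and 51 bases before the start, and none of the other motifs. The downstream window holds 2 GC boxes and none of the other motifs. A match describes letters in the window, and binding was not measured here.

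Cdkn1b encodes p27, which binds cyclin-CDK2 complexes and is known to be controlled largely through its breakdown. It read 493 and 542 in Rb-null serum-free, 535 and 570.4 in Rb-null serum, 710.2 and 605 in wild-type serum-free, and 514, 624 and 635 in wild-type serum arrays. All neighbours in the order of group levels overlapped, and the 2 wild-type groups stood above the 2 Rb-null groups in their means. Its response to withdrawal was -0.10 in Rb-null cells (95% confidence interval -0.39 to 0.20) and 0.16 in wild-type cells (-0.11 to 0.42), and neither passed (limma adjusted p = 0.778 and 0.432). The genotype difference without serum was -0.34 (SE 0.13, limma adjusted p = 0.071), with no overlap, and -0.09 in serum (adjusted p = 0.626). Without wild-type serum 1 the serum-free difference kept its size, -0.34, and passed (limma adjusted p = 0.0134).

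The other Cdkn1b probe set, whose suffix marks relaxed rules of probe selection, stayed under the floor throughout, at 126.9 to 169.4 on the Rb-null arrays and 69 to 98.8 on the wild-type arrays. Here the Rb-null arrays were the higher ones, opposite to the main probe set. Values under the floor were not tested, and no fold is given. Cdkn1c, the imprinted gene for p57, read 137 to 166 on all arrays, under the floor.

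Among the INK4 genes, Cdkn2b rose on withdrawal. It encodes p15, an inhibitor of CDK4 and CDK6 known as a target of TGF-beta signalling. It read 622 and 546 in Rb-null serum-free arrays and 445 and 411 in Rb-null serum arrays. It read 566 and 588 in wild-type serum-free arrays and 362, 344 and 337 in wild-type serum arrays. The serum-free groups of both lines overlapped at the top, with means 0.02 apart on the log2 scale. Below them came Rb-null serum and then wild-type serum, each clear of its neighbours.

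Cdkn2b rose by 0.45 in the Rb-null line (SE 0.10, 1.36-fold, limma adjusted p = 0.0138) and by 0.73 in the wild-type line (SE 0.09, 1.66-fold, adjusted p = 0.000553). The wild-type call held under all 16 alternatives, with differences of 0.66 to 0.76. The Rb-null call was lost without Rb-null serum 1 (adjusted p = 0.0539), Rb-null serum 2 (0.137) or Rb-null serum-free 1 (0.096). The difference between the responses was -0.28 (95% confidence interval -0.58 to 0.01, unadjusted p = 0.0565, limma adjusted p = 0.475), so a smaller rise in Rb-null cells was not shown. Without serum the lines differed by 0.02 (95% confidence interval -0.20 to 0.23, limma adjusted p = 0.918). In serum Cdkn2b was higher in Rb-null cells by 0.30 (SE 0.09, 1.23-fold, limma adjusted p = 0.0364). That call held in 8 of the 16 alternatives. Among single arrays it was lost on leaving out Rb-null serum 1 or 2 (adjusted p = 0.248 and 0.109), wild-type serum 2 or 3 (0.1 and 0.105) or wild-type serum-free 1 or 2 (0.0588 and 0.0585). It was also lost with no filter on low values (0.058) and with the replicate number as a block (0.107). Its promoter window (chr4:89310983-89311282, minus strand) holds 1 CHR and 1 GC box.
Cdkn2b: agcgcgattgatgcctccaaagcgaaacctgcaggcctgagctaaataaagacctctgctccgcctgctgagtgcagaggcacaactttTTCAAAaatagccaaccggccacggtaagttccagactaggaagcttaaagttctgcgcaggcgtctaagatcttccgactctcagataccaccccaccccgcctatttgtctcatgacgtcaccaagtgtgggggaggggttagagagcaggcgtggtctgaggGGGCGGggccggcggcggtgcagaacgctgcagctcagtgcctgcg

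Cdkn2a, which encodes p16 and, from another reading frame, the p53 activator ARF, is the protein-coding neighbour of Cdkn2b on chromosome 4. The probe set's annotation does not tell the transcripts apart. It read 477 and 508 in Rb-null serum-free, 404 and 508 in Rb-null serum, 589 and 513 in wild-type serum-free, and 499, 591 and 609 in wild-type serum arrays. The wild-type groups had the higher means, and in serum wild-type serum 1 fell within the Rb-null range. Withdrawal changed it by 0.12 in Rb-null cells (95% confidence interval -0.20 to 0.44) and by -0.04 in wild-type cells (-0.33 to 0.25), neither past the threshold (limma adjusted p = 0.728 and 0.871). The genotype difference was -0.16 without serum (limma adjusted p = 0.392) and -0.32 in serum (adjusted p = 0.109). Without wild-type serum 1 the difference in serum was -0.40 and passed (limma adjusted p = 0.0177).

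Cdkn2d encodes p19 of the INK4 family. It read 696 and 702 in Rb-null serum-free, 751 and 706 in Rb-null serum, 842 and 1163 in wild-type serum-free, and 793, 962 and 1067 in wild-type serum arrays. All Rb-null arrays lay below all wild-type arrays, and the Rb-null arrays were close together while the wild-type ones spread widely. Of all probe sets 23.5% separated the lines without overlap. As deposited the gap was narrow, with Rb-null serum 1 at 789.8, wild-type serum 1 at 792 and wild-type serum-free 1 at 799.8. Cdkn2d was lower in Rb-null cells, with a difference of -0.43 averaged over the media (SE 0.11, limma adjusted p = 0.0141, against 23.4% of probe sets called lower in that comparison). This shrank to -0.30 as deposited and to -0.33 with median scaling, and still passed (limma adjusted p = 0.0419 and 0.0321). The separate differences of -0.50 without serum (adjusted p = 0.05004) and -0.36 in serum (adjusted p = 0.128) did not pass. The averaged call was lost without Rb-null serum 2 (adjusted p = 0.0539), without wild-type serum-free 2 (0.0551) and with no filter (0.0533). Without wild-type serum 1 both separate differences passed (limma adjusted p = 0.0121 without serum and 0.0171 in serum). Withdrawal gave -0.06 in Rb-null cells (95% confidence interval -0.44 to 0.32) and 0.08 in wild-type cells (-0.26 to 0.43).

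Cdkn2c, the gene for p18, passed in no comparison. It read 1254 and 1269 in Rb-null serum-free, 1257 and 1367 in Rb-null serum, 1455 and 1292 in wild-type serum-free, and 918, 1343 and 1421 in wild-type serum arrays. The lowest value belonged to wild-type serum 1, and the other 8 arrays spanned 1254 to 1455. The genotype difference was -0.12 without serum (95% confidence interval -0.53 to 0.29), 0.12 in serum (-0.25 to 0.50), and -0.08 in serum without wild-type serum 1. The sign in serum therefore rested on that array. Without serum the sign turned under other scalings, to 0.10 as deposited and 0.06 with median scaling.

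Cdkn3 had the largest withdrawal difference of the tested members in both lines. It read 264 and 249.9 in Rb-null serum-free arrays and 464 and 435 in Rb-null serum arrays. It read 290.5 and 291 in wild-type serum-free arrays and 542, 547 and 543 in wild-type serum arrays. No groups overlapped, and the order from high to low was wild type in serum, Rb-null in serum, wild type without serum and Rb-null without serum. Cdkn3 fell on withdrawal, with a difference of -0.80 in the Rb-null line (SE 0.08, 0.572 times the serum level, limma adjusted p = 0.000181) and of -0.90 in the wild-type line (SE 0.07, 0.535 times, adjusted p = 4.16e-05). Both calls held under all 16 alternatives. With the floor at percentile 40, an intensity of 334, the serum-free arrays lay at the floor, and the differences of -0.43 and -0.71 there are set by it. The difference between the responses was 0.10 (95% confidence interval -0.14 to 0.33, limma adjusted p = 0.737).

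Between the lines Cdkn3 was lower in Rb-null cells in serum, with a difference of -0.28 (SE 0.07, limma adjusted p = 0.0205). Without serum it read -0.18 (SE 0.08, adjusted p = 0.104), which passed only with median scaling (-0.24, adjusted p = 0.0396). Averaged over the media it was -0.23 (SE 0.05, limma adjusted p = 0.00724) and held under all 16 alternatives. With the floor at percentile 40 the averaged difference was -0.14. The difference without serum was 0 there because those arrays lay at the floor. Leaving out Rb-null serum 1 or 2 (adjusted p = 0.0684 and 0.193) or wild-type serum 2 or 3 (0.0584 and 0.051) ended the call in serum, as did the fit with the replicate number as a block (0.0704). The Cdkn3 promoter window (chr14:46760291-46760590, plus strand) holds 4 CCAAT boxes, 4 GC boxes and 1 CHR, which begins 111 bases before the start.
Cdkn3: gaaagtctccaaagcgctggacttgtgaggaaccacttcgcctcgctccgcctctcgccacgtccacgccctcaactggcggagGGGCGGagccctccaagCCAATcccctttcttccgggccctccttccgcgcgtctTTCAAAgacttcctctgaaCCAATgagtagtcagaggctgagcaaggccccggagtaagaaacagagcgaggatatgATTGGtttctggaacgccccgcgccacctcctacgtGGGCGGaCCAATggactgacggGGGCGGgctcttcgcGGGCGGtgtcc

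**Figure D2:**
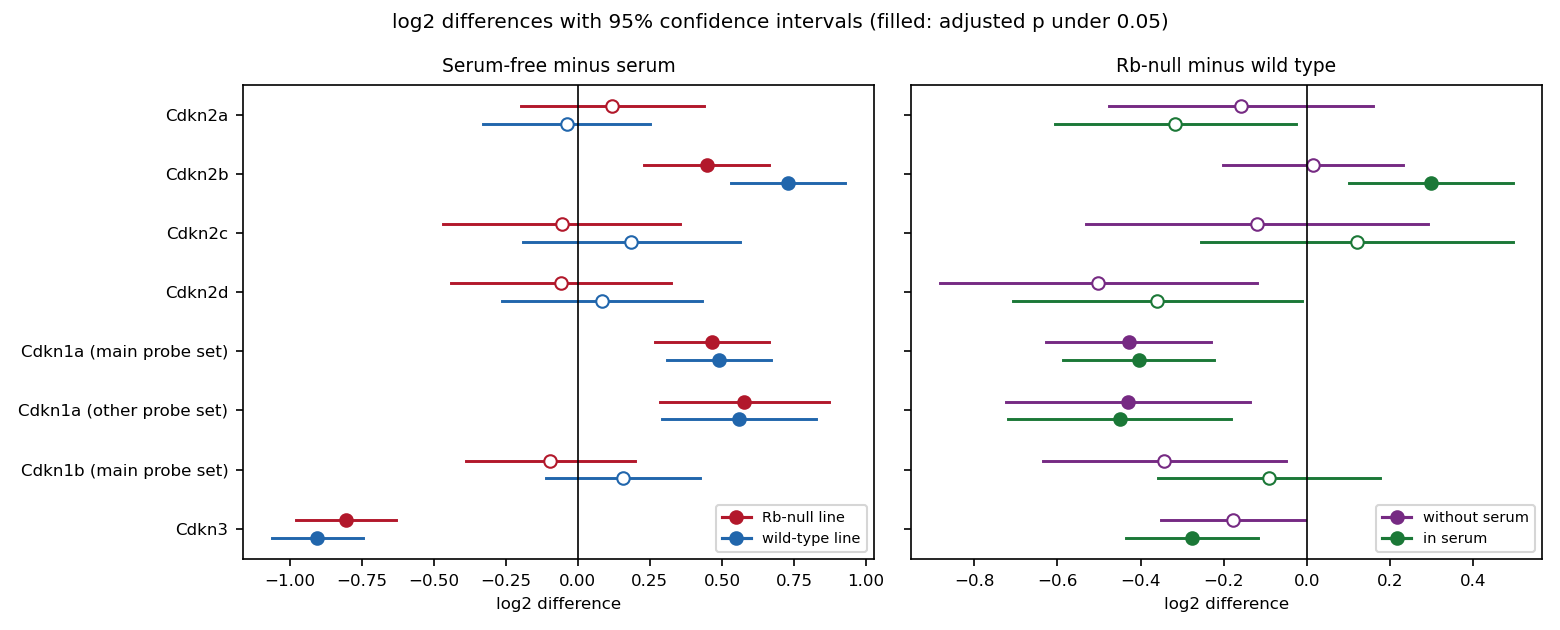
log2 differences (horizontal axis) with 95% confidence intervals for the 8 tested CDK inhibitor probe sets, serum-free minus serum on the left (Rb-null line in red, wild-type line in blue) and Rb-null minus wild type on the right (without serum in purple, in serum in green). Filled points have an adjusted p under 0.05: Cdkn1a, Cdkn2b and Cdkn3 are filled in both lines on the left, and only Cdkn1a is filled in both media on the right.

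Set side by side, neither family moved as a block. On withdrawal in the Rb-null line 1 of 4 INK4 genes (Cdkn2b) and 1 of 2 tested CIP/KIP genes (Cdkn1a) rose and none fell, with medians of 0.03 and 0.18 against 0.00 over all probe sets. In the wild-type line the counts were the same, with medians of 0.13 and 0.32 against 0.05. Of all probe sets, 7.5% rose and 6.42% fell in the Rb-null line, and 6.61% rose and 9.25% fell in the wild-type line. For the Rb-null minus wild-type difference without serum, 0 of 4 INK4 genes passed and 1 of 2 CIP/KIP genes was lower, with medians of -0.14 and -0.39 against -0.07. Of all probe sets, 13.9% were lower and 16.8% higher there. An unadjusted p under 0.05 in limma was reached by 1 of 4 INK4 and 2 of 2 CIP/KIP genes, against 4395 of all 9686 probe sets. In serum 1 of 4 INK4 genes was higher and 1 of 2 CIP/KIP genes lower, with medians of -0.10 and -0.25 against -0.03. Of all probe sets, 10.4% were lower and 13.2% higher in serum. With 4 and 2 genes these counts and medians are descriptions. For the difference between the withdrawal responses 0 of 8 member probe sets passed in limma, and 0.929% of all probe sets were called. An unadjusted p under 0.05 was found for 0 of 8 members, against 1059 of all 9686 probe sets.

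**Figure D3:**
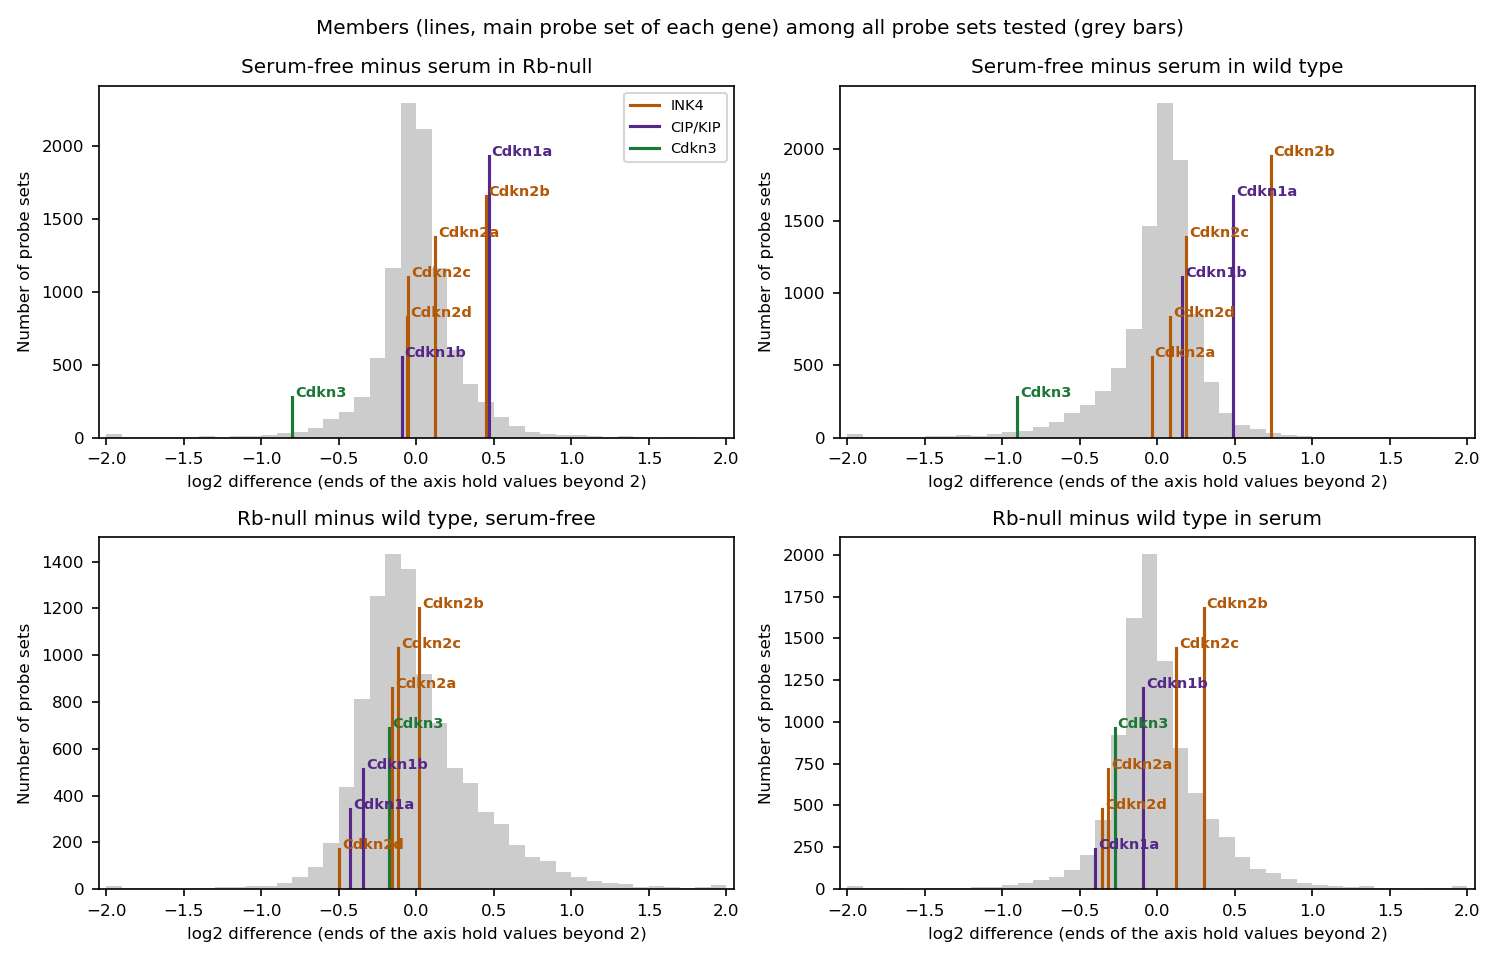
Number of probe sets (vertical axis) by log2 difference (horizontal axis, bins of 0.1, ends holding values beyond 2) for all 9686 tested probe sets in grey, with a line for the main probe set of each of the 7 tested CDK inhibitor genes (INK4 orange, CIP/KIP purple, Cdkn3 green, line heights carry no value). Cdkn3 at -0.80 and -0.90 and Cdkn2b at 0.45 and 0.73 lie in the tails of the withdrawal panels, while most members lie within the bulk of the genotype panels.

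The cyclins and kinases on which the inhibitors act were described over 14 tested genes of a list of 20, with 4 not named on the array and 2 under the floor. On withdrawal 5 fell and 0 rose in Rb-null cells (median -0.24, against 0.00 over all probe sets), and 4 fell and 1 rose in wild-type cells (median -0.03 against 0.05). Among all probe sets 6.42% fell and 7.5% rose in Rb-null cells, and 9.25% fell and 6.61% rose in wild-type cells. Cdk1, the mitotic kinase, fell by 1.67 in Rb-null and by 1.58 in wild-type cells on the log2 scale (limma adjusted p = 5.4e-06 and 3.59e-06). Ccna2, the gene for cyclin A2, fell by 1.24 and by 1.08 (limma adjusted p = 1.47e-05 and 1.86e-05), and Cdk2, a kinase that p21 and p27 bind, fell by 0.54 and by 0.46 (adjusted p = 0.00815 and 0.0098). Their fall was in the same direction as that of Cdkn3. Ccnd1, the gene for cyclin D1, the partner of CDK4, fell by 0.48 in Rb-null cells (limma adjusted p = 0.000618) and read -0.05 in wild-type cells (adjusted p = 0.558). The difference between those responses was -0.43 and passed (limma adjusted p = 0.0397). Among all probe sets 90 passed in that comparison, 57 without the intensity trend and 51 with the replicate number as a block. Pathway genes were not followed under the alternative settings, so the stability of the Ccnd1 call was not tested.

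Between the lines without serum 4 of the 14 were lower and 1 higher in Rb-null cells, and in serum 2 were lower and 1 higher. Among all probe sets 13.9% were lower and 16.8% higher without serum, and 10.4% lower and 13.2% higher in serum. Ccnd1 stood at -0.99 without serum and -0.56 in serum (limma adjusted p = 4.76e-06 and 0.000101). Ccnd3, the gene for cyclin D3, stood at -0.75 and -0.41 (adjusted p = 0.000351 and 0.00488), and Cdk2 was higher at 0.45 and 0.53 (adjusted p = 0.0112 and 0.00381). Cdk1 and Ccna2 did not pass in either medium.

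Of 11 pocket protein, E2F and DP genes downstream, 7 were tested. On withdrawal 2 fell and 1 rose in Rb-null cells and 3 fell and 0 rose in wild-type cells. The shares among all probe sets were 6.42% falling and 7.5% rising in Rb-null cells, and 9.25% and 6.61% in wild-type cells. Rbl1, the gene for the Rb relative p107, fell by 0.98 in wild-type cells (limma adjusted p = 0.00032) and read -0.35 in Rb-null cells (adjusted p = 0.0922). The difference between these did not pass (0.63, limma adjusted p = 0.15). The gene counted as rising in Rb-null cells was Rbl2, for the Rb relative p130. Rbl2 read 275.3 and 230.5 in Rb-null serum-free arrays, against 168.4 and 162.2 in Rb-null serum arrays, which lie under the floor. Of its wild-type arrays only wild-type serum 1, at 200.3, was above the floor. The size of its difference is therefore set by the floor and is not given. Tfdp1, an E2F partner whose probe set can bind related transcripts, fell by 0.27 and by 0.54 (limma adjusted p = 0.0392 and 0.000714), and E2f5 fell by 0.34 and by 0.39 (adjusted p = 0.0309 and 0.00968), in Rb-null and in wild-type cells. Without serum 3 were higher and 1, Rb1, was lower in Rb-null than in wild-type cells. In serum Rb1 alone passed, again lower. Of all probe sets, 16.8% were higher and 13.9% lower without serum, and 13.2% and 10.4% in serum. Tfdp1 stood at 0.39 and Rbl1 at 0.52 without serum (limma adjusted p = 0.00522 and 0.0112). In serum these read 0.12 and -0.11 (adjusted p = 0.239 and 0.514). Rbl2 was the other gene higher.

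Genes that control the inhibitors' transcription or turnover gave 25 tested genes of a list of 30. On withdrawal 4 rose and 2 fell in Rb-null cells, and 4 rose and 4 fell in wild-type cells. Against these, 7.5% of all probe sets rose and 6.42% fell in Rb-null cells, and 6.61% rose and 9.25% fell in wild-type cells. Cks1b, a cofactor in the breakdown of p27, fell by 1.17 in Rb-null and by 1.00 in wild-type cells (limma adjusted p = 7e-06 and 7.75e-06). Ezh2, the methyltransferase known to silence Cdkn2a, fell by 0.82 in Rb-null cells and fell by 1.396 in wild-type cells (limma adjusted p = 0.0033 and 6.85e-05). Cebpb rose by 1.11 and by 0.63 (limma adjusted p = 0.000238 and 0.00281), and Klf4, a factor known to induce Cdkn1a, rose by 0.79 and by 0.55 (adjusted p = 0.00125 and 0.00467). Between the lines without serum 9 were higher and 5 lower in Rb-null cells, and in serum 6 were higher and 3 lower. Of all probe sets, 16.8% were higher and 13.9% lower without serum, and 13.2% higher and 10.4% lower in serum. Myc, known to repress Cdkn1a and Cdkn2b, was higher in Rb-null cells by 1.54 without serum and by 0.69 in serum (limma adjusted p = 0.000989 and 0.0307). Klf4 was higher by 0.83 and 0.59 (adjusted p = 0.000644 and 0.00258), Ets2 by 0.66 and 0.68 (adjusted p = 0.00281 and 0.00155), while Ezh2 was higher by 0.80 without serum (adjusted p = 0.00235) and read 0.22 in serum (adjusted p = 0.218). No causal relation between these genes and the members was tested.

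For the members whose group means spanned at least 0.5 on the log2 scale, the tested probe sets with the most similar profile over the 9 arrays were looked up by Pearson correlation. The arrays share 4 groups and 1 scaling, so such correlations are high for any gene that follows the groups, and they are descriptions. Cdkn3 was most like Tuba1c, an alpha-tubulin gene whose probe set can bind related transcripts (r = 0.993), and Ahcy, the hydrolase of S-adenosylhomocysteine (r = 0.989). Cdkn2b was most like Grcc10 (r = 0.988) and Anxa4, a calcium-binding annexin (r = 0.983). Cdkn1a was most like Os9, a lectin of endoplasmic reticulum quality control (r = 0.985), and Tmem160 (r = 0.985). Cdkn2d was most like Celsr2, a cadherin-type receptor (r = 0.981), and Mybpc3 (r = 0.974). Both also ranked the wild-type arrays in the same order as Cdkn2d, so these correlations include the spread within groups. Mybpc3 overlapped between the lines, at 716.5 in wild-type serum 1 and 734.4 in Rb-null serum 1. The spans of Cdkn1b, Cdkn2a and Cdkn2c were 0.34, 0.32 and 0.19, below the limit.

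**Figure D4:**
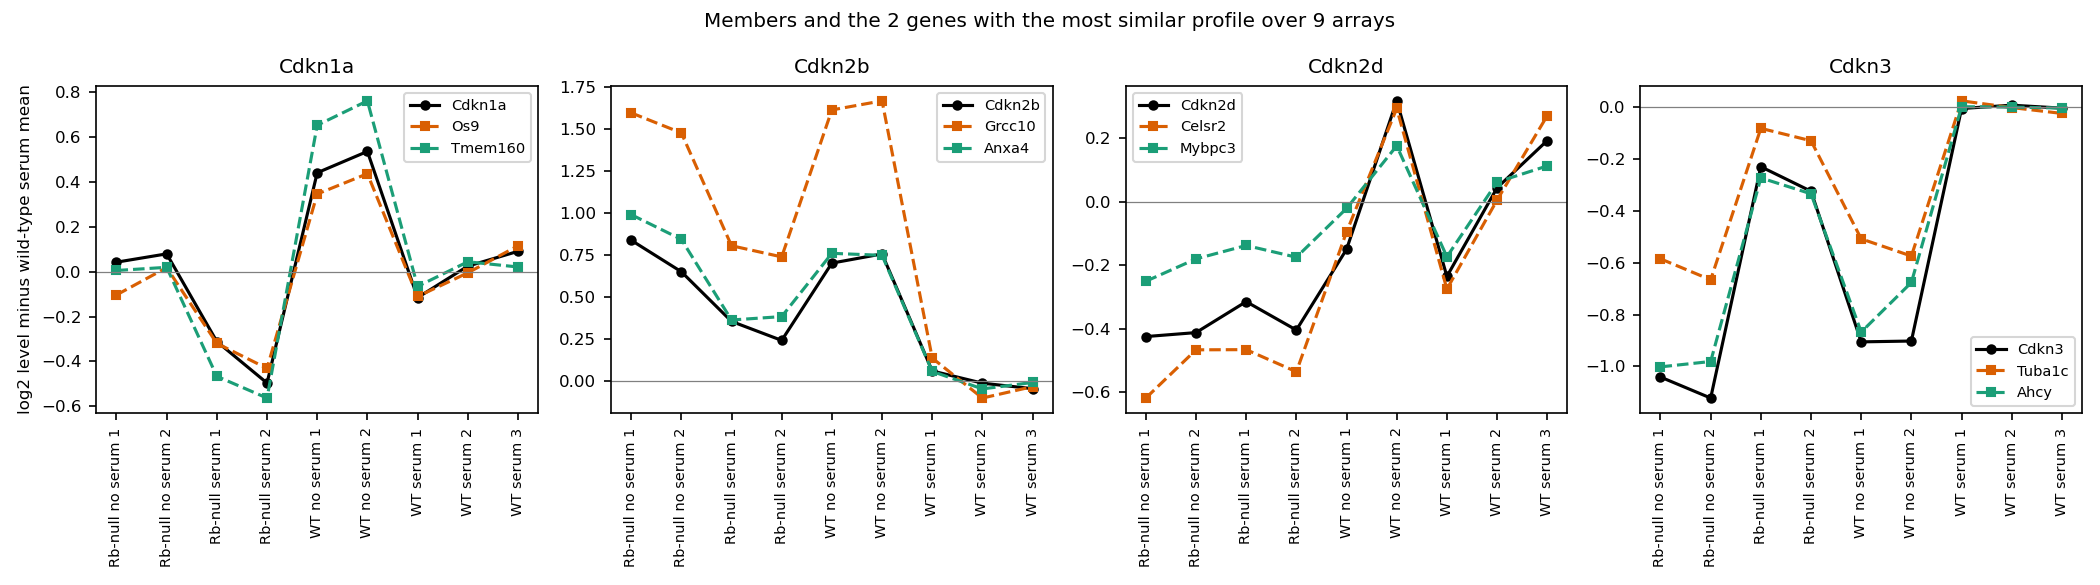
log2 level minus the wild-type serum mean (vertical axis) on each of 9 arrays (horizontal axis) for Cdkn1a, Cdkn2b, Cdkn2d and Cdkn3 in black and the 2 genes most like each in colour. Cdkn1a separates all 4 groups except Rb-null without serum and wild type with it. Cdkn2b and Cdkn3 follow mainly the serum, and Cdkn2d mainly the line, with a wide spread among the wild-type arrays.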

How the data were processed

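The authors deposited linear intensities, 1 value for each probe set on each array. No source used here gives the software, summary method or scaling behind them. Upper quartiles of the arrays spanned 0.22 on the log2 scale, above the limit of 0.1 set for scaling, so values were quantile normalised, raised to a floor at percentile 25 (197) and taken to log2, since the deposited values were not on a log2 scale. Probe sets above the floor on at least 2 of 9 arrays were tested, which left 9686. No detection calls came with the values. Symbols came from the platform annotation, updated by gene identifier from the reference gene table of GRCm38.p6. It named 10833 probe sets with 1 gene, 396 with several and 1193 with none. The model was a limma fit (version 3.58.1, R 4.3.3) of 4 group means over all 9 arrays, an intensity trend, 5 residual and 4.20 prior degrees of freedom, two-sided tests and Benjamini-Hochberg adjustment over all tested probe sets. The number of arrays limits the precision. The procedure was tested on simulated data with independent noise on each array, for the averaged genotype difference only. Scaling differences between arrays and an outlying array were not simulated.

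All probe sets of the 8 symbols are described, and a gene's main probe set is the one with the highest mean. Pathway genes are named by smallest adjusted p, 3 per list for the averaged genotype difference and 2 per list for each withdrawal comparison. The members and lists were chosen with earlier results of these data known. The 16 alternatives were 2 other scalings, 2 other floors, no filter, no intensity trend, the replicate number as a block and leaving out each of the 9 arrays.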

Additional observations from a re-analysis of the deposited data

How the results depend on the processing

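The directions of the called member differences held under all 16 alternatives. The counts of called member probe sets (8 tested) moved more. For the lines in serum the count was 4, and 2 in the values as deposited, with median scaling, with no filter or with the replicate number as a block. For the lines without serum it was 2, and 1 as deposited or with no filter. Over the fits that left out 1 array, these counts ran from 0 to 6 in serum, 0 to 4 without serum, 3 to 7 averaged over the media, 1 to 4 for withdrawal in Rb-null cells and 2 to 4 in wild-type cells. Among all probe sets the fits that left out 1 array called 877 to 4376 in serum, 1159 to 4981 without serum, 497 to 2280 and 667 to 1963 for withdrawal in Rb-null and wild-type cells and 12 to 255 for the difference between the withdrawal responses. The 4376, 4981, 2280 and 255, and the member counts of 6, 4 and 7 between the lines, came without wild-type serum 1. The last count was 90, and 57 with the floor at percentile 10, 57 without the trend and 51 with the block. A group left with 1 array is assumed to vary like the others.

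Signs turned only for differences that were not called. Cdkn2c without serum was 0.10 as deposited and 0.0631 with median scaling, and Cdkn2a on withdrawal in wild-type cells was 0.0173 with the block. With 1 array left out the ranges that crossed 0 were, for Cdkn2a, -0.045 to 0.28 on withdrawal in Rb-null cells, -0.14 to 0.0625 on withdrawal in wild-type cells and -0.0074 to 0.32 for the difference between the responses. For Cdkn2b the range between the lines without serum was -0.0778 to 0.11. For Cdkn2c they were -0.10 to 0.0602 between the lines averaged, -0.0755 to 0.24 in serum, -0.12 to 0.0043 on withdrawal in Rb-null cells and -0.01 to 0.31 in wild-type cells. For Cdkn2d they were -0.15 to 0.32 on withdrawal in wild-type cells and -0.38 to 0.0933 for the difference between the responses. For Cdkn1a that difference ran from -0.12 to 0.0655 on the main and from -0.11 to 0.12 on the other probe set. The causes were not tested.

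Whether the numbers in the array titles pair the samples cannot be told from these arrays. In a group of 2 arrays the deviations from the mean mirror each other, so values repeat between replicates 1 and 2. Of 12 correlations between the deviations of same-numbered arrays, 2 were over 0.1, and they ran from -0.23 to 0.33. Both of those over 0.1 were between Rb-null serum-free and wild-type serum arrays (0.33 and 0.30). With the replicate number as a block, Cdkn2b (0.28, adjusted p = 0.107) and Cdkn3 (-0.28, adjusted p = 0.0704) lost their calls in serum, and Cdkn2d passed without serum (adjusted p = 0.0289).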
